A study of Mus musculus with 20 samples.

Results

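The mevalonate arm of cholesterol synthesis was followed through 9 genes, Hmgcs1, Mvk, Pmvk, Mvd, Idi1, Fdps, Fdft1, Sqle and Lss, in dermal fibroblasts of female mice. A gene was read from the array features (probe sets) annotated to that gene alone, and where it had several, from the one with the highest mean over all 20 arrays. Of the 9 genes, 8 were measured, out of 17097 genes in all, and Pmvk had no such probe set and is not analysed here. Each array carried the RNA of 1 mouse, with 5 mice in each of 4 groups. Old CR-ND mice began at an age of 9 months with 7 months of caloric restriction (CR) by 30% and returned to a normal diet (ND) for the last 2 months. Old CR mice started at the same age, ate the normal diet for 2 months and were then restricted by 30% for 7 months, so that they were still restricted at collection. Old ND mice ate the normal diet for all 9 months, and the mice of these 3 groups were collected at 18 months of age. Young ND mice were 4 weeks old at the start and then ate the normal diet for 4 weeks. The labels name no allele or transgene, no strain and, for the young mice, no age at collection. Mice were killed over several days, 3 from different groups per day.

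The fibroblasts were sorted from collagenase-digested skin without its subdermis, as cells with Pdgfra and CD34 on their surface and without EpCAM, CD31, CD24, CD117 and CD45. In these arrays Cd34 was bright in every group, at 11.23 ± 0.13 in Old CR and 11.01 ± 0.20 in Old ND (log2 level, mean ± SD, n = 5 each), Ptprc, the gene of CD45, was dim at 3.25 and 3.26, and Epcam lay at 5.06 and 5.11. Pdgfra, a receptor that marks fibroblasts, averaged 5.90 in Old CR and 6.20 in Old ND, close to the median gene (difference -0.30, adjusted p = 0.449). Keratinocyte genes were nevertheless detected, with Krt5 at 8.69 in Old CR and 8.69 in Old ND against a median gene level of 5.88. The sorted cells are a bulk sample, so more RNA of a gene per cell and more cells of a type that expresses it cannot be told apart. The sample titles carry numbers that fall into 2 separate ranges, called runs here, of 13 and 7 arrays, and what the numbers stand for is not stated. Old CR contributed 4 arrays to run 1 and only 1 to run 2, whereas every other group contributed 3 and 2. With the groups held constant, 2934 genes (17.2%) differed between the runs.

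Cholesterol is built from acetyl-CoA in the cytosol and the endoplasmic reticulum. The first steps make mevalonate, further kinases and a decarboxylase turn mevalonate into the isoprene unit isopentenyl diphosphate, and these units are joined to farnesyl diphosphate and squalene, which is closed to lanosterol, the first sterol. The genes are switched on together by SREBP2, a transcription factor that is released from the endoplasmic reticulum when membrane sterol falls, and it often acts beside NF-Y, which binds CCAAT boxes. Farnesyl diphosphate also feeds the prenylation of small GTPases and the synthesis of dolichol and ubiquinone.

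The promoters of 3 members are shown. Mvk and Idi1 are the 2 genes called in Old CR against Old ND that have a window in the RefSeq table of the GRCm38.p6 assembly. Hmgcs1 was not called in any comparison and was picked because its window holds a match to the sterol element core. Each window runs from 250 bases before to 50 bases after a start site, 5′ to 3′ on the strand of the gene, and 6 of the 9 genes had one. Capitals mark matches to the sterol element core TCACNCCAC and to the CCAAT box, read as ATTGG or CCAAT, with both motifs searched on both strands. Mvk lies on the plus strand at chr5:114444019-114444318, Idi1 on the plus strand at chr13:8885356-8885655 and Hmgcs1 on the plus strand at chr13:119690101-119690400.
Mvk: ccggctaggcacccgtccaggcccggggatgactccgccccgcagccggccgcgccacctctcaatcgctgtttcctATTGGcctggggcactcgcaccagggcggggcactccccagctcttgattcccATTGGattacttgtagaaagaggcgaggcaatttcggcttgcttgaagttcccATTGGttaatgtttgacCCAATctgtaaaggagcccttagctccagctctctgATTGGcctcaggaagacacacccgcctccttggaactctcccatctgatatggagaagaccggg
Idi1: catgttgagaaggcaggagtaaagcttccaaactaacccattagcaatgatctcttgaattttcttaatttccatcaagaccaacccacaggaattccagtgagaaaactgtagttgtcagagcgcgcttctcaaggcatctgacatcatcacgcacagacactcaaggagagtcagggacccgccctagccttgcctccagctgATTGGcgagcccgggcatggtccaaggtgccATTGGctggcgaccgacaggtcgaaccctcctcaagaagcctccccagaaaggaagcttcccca
Hmgcs1: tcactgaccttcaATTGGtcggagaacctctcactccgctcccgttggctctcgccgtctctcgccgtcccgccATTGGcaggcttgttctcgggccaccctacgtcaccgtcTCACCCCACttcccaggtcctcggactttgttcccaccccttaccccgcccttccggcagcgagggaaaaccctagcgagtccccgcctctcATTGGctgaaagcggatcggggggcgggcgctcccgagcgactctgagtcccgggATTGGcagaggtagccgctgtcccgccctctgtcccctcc
The Mvk window held 5 CCAAT boxes, a number reached or exceeded by 0.271% of the 32851 windows in the table. The Idi1 window held 2, at positions -45 and -14 from the start site, and 11.7% of all windows held 2 or more. The Hmgcs1 window held 4 CCAAT boxes, as many or more than which were found in 1.06% of all windows, and TCACCCCAC at position -137, the only match to the sterol element core among the windows of these 6 genes. That core was found in 1.24% of all windows. Mvd had 2 CCAAT boxes, Lss had 1, and the 2 windows of Pmvk had 1 and 0, where 37.4% of all windows held at least 1. No match overlapped another. A match is a description of these letters, and the windows of Fdps, Fdft1 and Sqle are not shown.

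The comparison of Old CR with Old ND sets old mice under restriction at collection beside old mice that were never restricted. Of the 8 measured genes 4 rose in Old CR and 0 fell, against 1.57% of all genes that rose, 0.819% that fell and 2.39% that did either. They were Fdps, Fdft1, Idi1 and Mvk, with rises between 1.41-fold and 2.11-fold. Lss, Sqle, Mvd and Hmgcs1 did not pass. The median change of the 8 genes was 0.44 on the log2 scale, and over all 17097 genes it was 0.00. All p-values are from limma and adjusted over all genes by Benjamini-Hochberg, changes are log2 differences ± standard error with n = 5 arrays per group, and the threshold was an adjusted p of 0.05.

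Fdps encodes farnesyl diphosphate synthase, which joins isoprene units to the farnesyl chain at the branch point between sterols and prenylated proteins. Its log2 level was 7.12, 6.75, 6.75, 7.05 and 6.28 in Old CR, against 6.04, 5.42, 5.95, 5.64 and 5.50 in Old ND. The groups did not overlap, and the lowest Old CR array, replicate 5, was the only one of its group in the second run. The difference was 1.08 ± 0.15 (2.11-fold, adjusted p = 0.00138), which placed Fdps in position 9 of all genes by p and in position 16 by size of rise. Arrays of run 1 alone gave 1.11 (adjusted p = 0.00285). Those of run 2 gave 0.71, with an adjusted p of 0.715 that rests on 1 Old CR array. Every array of Old CR also lay above every one of the other 15 arrays, since Old CR-ND reached 6.11 and Young ND 6.05. The same held for 0.368% of all genes.

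Fdft1 encodes squalene synthase, the first enzyme that commits farnesyl diphosphate to sterols. Its log2 level was 6.71, 6.19, 6.66, 6.50 and 6.17 in Old CR, against 5.87, 5.87, 5.88, 5.75 and 5.62 in Old ND. The groups did not overlap, and the Old ND arrays lay within a narrow band while the Old CR arrays fell into 3 higher and 2 lower ones. The difference was 0.65 ± 0.11 (1.57-fold, adjusted p = 0.00466). Fdft1 was also the only member that differed between the runs, by -0.27 ± 0.06 for the second against the first run (adjusted p = 0.00429). With the run as a block its change in Old CR was 0.59 ± 0.08 (adjusted p = 0.000599), and within the runs it was 0.64 and 0.49. Fdft1 and Fdps were the 2 members whose Old CR arrays did not overlap those of Old ND, and 2.22% of all genes had Old CR wholly above Old ND.

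Idi1 encodes the isomerase that turns isopentenyl into dimethylallyl diphosphate, the starter for chain growth, and it was read on a pair of probe sets. On the brighter one its log2 level was 6.49, 6.70, 6.51, 6.89 and 6.32 in Old CR, against 5.96, 5.30, 6.54, 5.84 and 5.52 in Old ND. The only overlap came from Old ND replicate 3, at 6.54, which stood above 3 of the Old CR arrays. The difference was 0.75 ± 0.18 (1.68-fold, adjusted p = 0.0270). This call was lost, at adjusted p between 0.0552 and 0.0869, when Old CR replicate 2, 3 or 4 was left out, or Old ND replicate 2 or 5. It was also lost in run 1 alone (0.71, adjusted p = 0.0936) and with only these 2 groups fitted (adjusted p = 0.0936).

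On the second probe set of Idi1 the log2 level was 5.60, 5.79, 5.75, 5.88 and 5.75 in Old CR, against 4.69, 3.50, 5.04, 4.59 and 4.57 in Old ND. Here the groups were apart, and Old CR also stood above all arrays of Old CR-ND, which reached 4.66, and of Young ND, which reached 4.43. The difference was 1.28 ± 0.18 (2.42-fold), with an adjusted p of 0.00103 over all probe sets that name a single gene, where the first probe set had an adjusted p of 0.0301. The 2 probe sets of Idi1 correlated at r = 0.90 over the 20 arrays. Idi2, the neighbouring paralog, was dim, at 3.65 in Old CR and 3.86 in Old ND, and did not pass (-0.21, adjusted p = 0.416).

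Mvk encodes mevalonate kinase, the first step after mevalonate. Its log2 level was 8.35, 7.93, 7.91, 7.92 and 7.61 in Old CR, against 7.49, 7.39, 7.72, 7.34 and 7.29 in Old ND. The groups touched only at their edges, where Old CR replicate 5 lay below Old ND replicate 3. The difference was 0.50 ± 0.13 (1.41-fold, adjusted p = 0.0499), just inside the threshold. Of the 10 arrays compared, 8 were each needed for the call, since leaving any of them out gave an adjusted p between 0.0832 and 0.132. The exceptions were Old CR replicate 5 and Old ND replicate 3. In run 1 alone the change was 0.49 (adjusted p = 0.104). The Mvk call was lost under 17 of 24 alternatives in all, with an adjusted p between 0.0517 and 0.0827 under 6 of those that kept all 10 arrays of these groups. The second probe set of Mvk differed by 0.35 ± 0.12 (adjusted p = 0.131 over the probe sets), and the 2 probe sets correlated at r = 0.86.

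The other members showed a smaller or less even difference. Lss, the cyclase that closes oxidized squalene to lanosterol, had log2 levels of 5.04, 4.88, 4.98, 5.13 and 4.70 in Old CR, against 4.50, 4.69, 4.70, 4.77 and 4.69 in Old ND. Only Old CR replicate 5 lay within the range of Old ND, and the difference of 0.28 ± 0.09 (95% interval 0.08 to 0.47) did not pass (adjusted p = 0.141). Run 1 alone gave 0.38, which passed (adjusted p = 0.0339), and run 2 alone gave -0.03.

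Sqle, the epoxidase that oxidizes squalene and a point of control of the pathway, had log2 levels of 5.55, 5.20, 5.23, 5.33 and 5.21 in Old CR, against 5.78, 4.07, 5.60, 4.60 and 4.55 in Old ND. The Old CR arrays were close together (SD 0.15), while Old ND held the highest and the lowest values of the 20 arrays (SD 0.74). The difference was 0.38 ± 0.26, with an interval from -0.15 to 0.92 that includes rises as large as that of Idi1 (adjusted p = 0.552). The Sqle change was 0.17 without Old ND replicate 2 and 0.60 without Old ND replicate 1, 0.18 in run 1 alone, 0.64 in run 2 alone and 0.21 with array weights, and it passed under none of these. Old ND replicates 1 and 3 had the higher Sqle values of that group. The mean log2 level of 7 keratinocyte markers was 8.54 on Old ND replicate 1 and 6.18 on Old ND replicate 3. Over the 20 arrays this mean correlated with Sqle at r = 0.21, and its part in the spread of Sqle was not tested.

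Mvd, the decarboxylase that yields isopentenyl diphosphate, ran from 5.81 to 5.97 in Old CR and from 5.64 to 6.03 in Old ND, with a difference of 0.10 ± 0.07 (interval -0.06 to 0.25, adjusted p = 0.633). Its second probe set differed by 0.07 (adjusted p = 0.760), and the 2 probe sets of Mvd correlated at r = 0.00 over the 20 arrays. Hmgcs1, the cytosolic synthase that makes HMG-CoA, ran from 4.20 to 4.51 in Old CR and from 4.06 to 4.50 in Old ND, with a difference of -0.01 ± 0.10 (interval -0.23 to 0.20, adjusted p = 0.974). Its 1 probe set was dim, with a mean of 4.28, above that of 19.5% of genes. Whether a change of Hmgcs1 was missed at this level was not tested. Probe sets without a symbol in the annotation were not used, so Hmgcs1 rests on this 1 probe set.

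**Figure D1:**
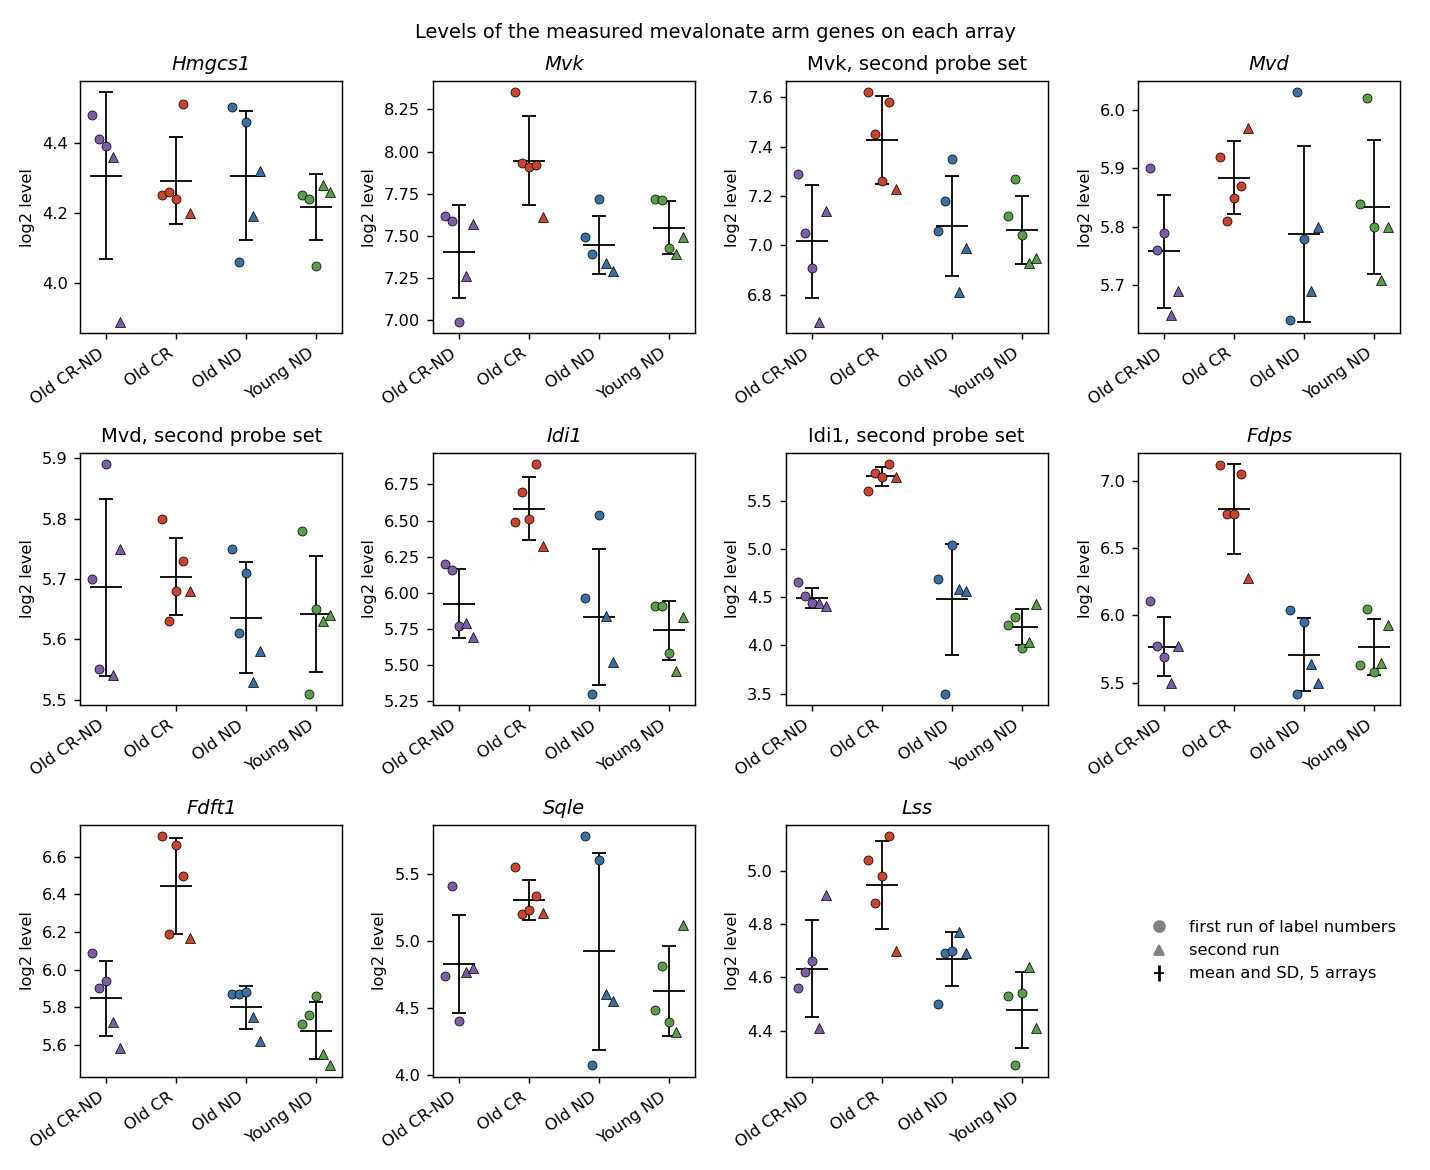
Log2 level (vertical axis) of each probe set of the 8 measured genes on each of the 20 arrays, by group, with circles for the first and triangles for the second run of label numbers and bars for the mean and SD of 5 arrays. Fdps, Fdft1 and the second probe set of Idi1 show all Old CR arrays above all others, whereas the groups overlap for Hmgcs1 and Mvd.

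Old CR-ND against Old CR sets old mice that ate the normal diet for the last 2 months, after restriction, beside old mice still restricted at collection. Fdps and Fdft1 were lower in Old CR-ND, and the other 6 genes did not pass. That makes 2 of 8 genes lower and 0 higher, against 0.211% of all genes that were lower, 0.123% that were higher and 0.333% that were either. The median change of the 8 genes was -0.51, and over all genes it was -0.01. Both groups had 7 months of restriction and 2 months of normal diet, in opposite order. No group was collected at the end of the earlier restriction, so a change over time within Old CR-ND cannot be read from these arrays.

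Fdps had log2 levels of 6.11, 5.77, 5.69, 5.50 and 5.77 in Old CR-ND, against 7.12, 6.75, 6.75, 7.05 and 6.28 in Old CR. No array of Old CR-ND reached the lowest one of Old CR, and the difference was -1.02 ± 0.15 (adjusted p = 0.00617). Fdft1 had log2 levels of 6.09, 5.90, 5.94, 5.72 and 5.58 in Old CR-ND, against 6.71, 6.19, 6.66, 6.50 and 6.17 in Old CR, also without overlap. Its level was lower in Old CR-ND by 0.60 ± 0.11 (adjusted p = 0.0226). This call was lost when Old CR replicate 1, 3 or 4 was left out, or Old CR-ND replicate 2, 4 or 5 (adjusted p between 0.0518 and 0.0859). It was also lost in run 1 alone (-0.54, adjusted p = 0.0912) and with only these 2 groups fitted (adjusted p = 0.0620). The mean log2 level of the keratinocyte markers lay between 6.98 and 8.04 in Old CR-ND and between 6.84 and 7.51 in Old CR, and its part in these differences was not tested.

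Idi1 ran from 5.69 to 6.20 in Old CR-ND and from 6.32 to 6.89 in Old CR, which do not overlap, and its difference of -0.66 ± 0.18 did not pass (adjusted p = 0.119). On its second probe set the Old CR-ND arrays lay between 4.41 and 4.66 and the Old CR arrays between 5.60 and 5.88, a difference of -1.26 ± 0.18 (adjusted p = 0.00450 over the probe sets). With Idi1 included, 3 of 8 genes had Old CR wholly above Old CR-ND, as did 1.18% of all genes. Mvk averaged 7.41 ± 0.27 (SD) in Old CR-ND and 7.94 ± 0.26 in Old CR, with a difference of -0.54 ± 0.13 (adjusted p = 0.0863), and it passed without Old CR replicate 5 (adjusted p = 0.0409). The differences of Lss (-0.31 ± 0.09, adjusted p = 0.184), Sqle (-0.48 ± 0.26, adjusted p = 0.572), Mvd (-0.13 ± 0.07) and Hmgcs1 (0.01 ± 0.10) did not pass.

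Old CR-ND against Old ND sets mice with a past restriction beside mice that were never restricted. None of the 8 genes passed (0 of 8, against 0.00585% of all genes in either direction). An unadjusted limma p under 0.05 was found for 0 of the 8 and for 868 of all 17097 genes. A count of 0 among 8 genes lies near these shares and is not read as a result about the members. The 8 changes lay between -0.10 for Sqle and 0.09 for Idi1, with a median of -0.015. No member had Old CR-ND wholly above Old ND (0 of 8, against 0.31% of all genes). Fdps averaged 5.77 ± 0.22 in Old CR-ND and 5.71 ± 0.27 in Old ND (SD, n = 5 each), a difference of 0.06 with an interval from -0.26 to 0.38. That interval leaves out the rise of Fdps by 1.08 in Old CR over the same Old ND arrays. For Fdft1 it ran from -0.19 to 0.28, for Mvk from -0.32 to 0.24 and for Idi1 from -0.28 to 0.46. Sqle had the widest one, from -0.63 to 0.44.

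**Figure D2:**
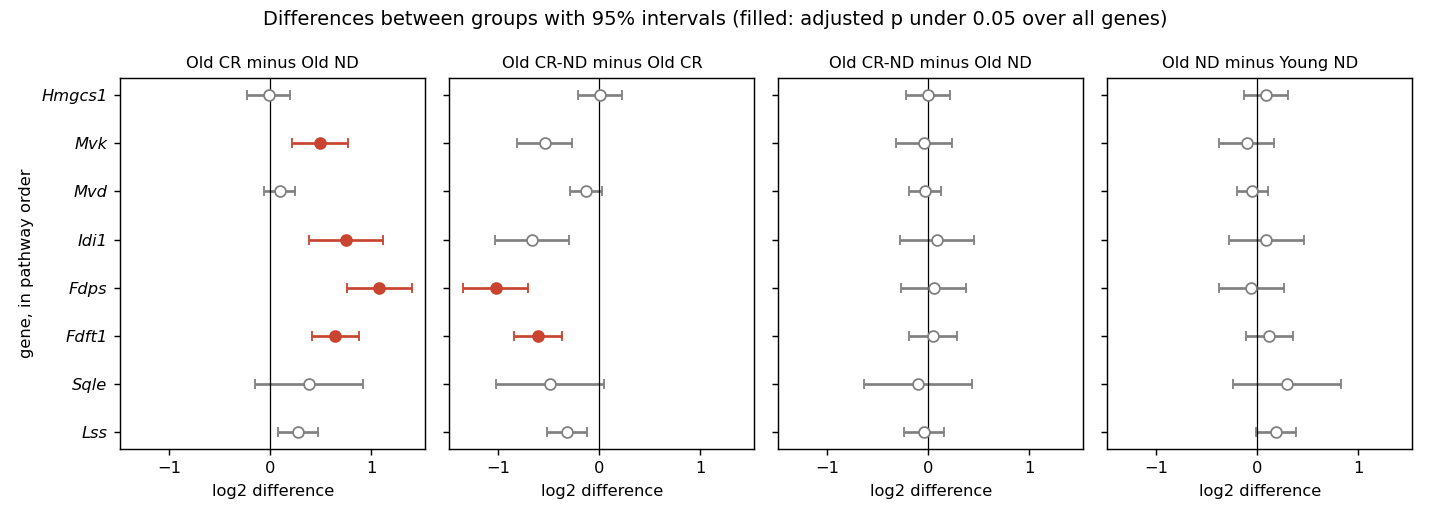
Log2 difference (horizontal axis) of each gene in pathway order, with 95% intervals, n = 5 arrays per group, for 4 comparisons, filled where the adjusted p over all genes was under 0.05. Fdps differs by 1.08 in Old CR against Old ND and by -1.02 in Old CR-ND against Old CR, while the points of Old CR-ND against Old ND lie between -0.10 and 0.09.

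The age comparison, Old ND against Young ND, holds the diet constant. Again 0 of 8 genes passed, against 4.45% of all genes that rose, 6.49% that fell and 10.9% that did either. An unadjusted limma p under 0.05 was found for 0 of the 8 and for 3924 of all 17097 genes. With only 8 genes, these counts of 0 are given as a description. Lss came nearest, at 4.67 ± 0.10 in Old ND and 4.48 ± 0.14 in Young ND (SD, n = 5 each), a difference of 0.19 ± 0.09 (adjusted p = 0.231). The Fdps means were 5.71 for Old ND and 5.77 for Young ND, a difference of -0.06 ± 0.15. The Fdft1 means were 5.80 for Old ND and 5.67 for Young ND, a difference of 0.12 ± 0.11. The median of the 8 changes was 0.09, and 0 of 8 genes had Old ND wholly above Young ND, against 2.84% of all genes.

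Against Young ND, Old CR was higher for 4 of 8 genes and lower for 0, where 7.11% of all genes rose, 5.56% fell and 12.7% did either. Fdps rose by 1.02 ± 0.15 (adjusted p = 0.000118), Idi1 by 0.84 ± 0.18 (adjusted p = 0.00262), Fdft1 by 0.77 ± 0.11 (adjusted p = 8.95e-05) and Lss by 0.47 ± 0.09 (adjusted p = 0.00192). Lss lay between 4.70 and 5.13 in Old CR and between 4.27 and 4.64 in Young ND. In 5 of 8 genes, these 4 and Sqle, all Old CR arrays lay above all Young ND arrays, as they did in 5.62% of all genes. Mvk (0.40 ± 0.13, adjusted p = 0.0540, and 0.0199 without Old CR replicate 5) and Sqle (0.68 ± 0.26, adjusted p = 0.0926) did not pass. Old CR-ND against Young ND gave 0 of 8 genes, against 3.22% of all genes that rose, 3.82% that fell and 7.04% that did either, and Fdps averaged 5.77 in both. The comparisons with Old ND share its arrays, as do those with Young ND, and they are not independent of each other.

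Read as levels, Old CR had the highest group mean for 7 of the 8 genes, all but Hmgcs1. The share of all genes with Old CR highest was not counted, so this is a description. For Mvd the difference between Old CR and Young ND was only 0.05 (adjusted p = 0.768), and -0.02 in run 1 alone. No difference among Old CR-ND, Old ND and Young ND passed for any of the 8. Each gene was centred on its own mean, and the deviations of the 8 genes were averaged per array. That average was 0.52, 0.31, 0.36, 0.49 and 0.15 in Old CR, against 0.07, -0.30, 0.17, -0.18 and -0.25 in Old ND. Old CR stood above Old ND apart from 1 overlap, where Old CR replicate 5, at 0.15, lay below Old ND replicate 3, the highest array outside Old CR, at 0.17. It was 0.06, 0.05, -0.20, -0.22 and -0.17 in Old CR-ND and -0.15, -0.06, -0.25, -0.28 and -0.12 in Young ND. Among the arrays of run 2, where that Old CR array belongs, Old ND stood at -0.18 and -0.25, both below it.

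**Figure D3:**
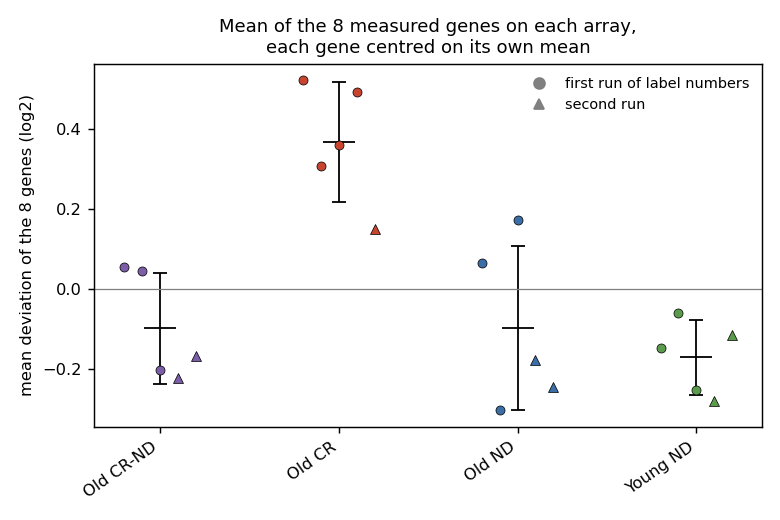
Mean deviation (log2) of the 8 measured genes on each array, each gene centred on its mean over the 20 arrays, by group, with circles for the first and triangles for the second run and bars for mean and SD of 5 arrays. Old CR lies between 0.15 and 0.52, and the other arrays lie between -0.30 and 0.17.

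How evenly the members moved was described by Pearson's r over the 20 arrays, which share groups, runs and normalization. Over all 28 pairs the median r was 0.47. Idi1 and Fdps had the highest value (0.87), followed by Fdps and Fdft1 (0.86) and by Mvk and Fdps (0.84). Hmgcs1 and Mvd, the members with the smallest changes in Old CR against Old ND, were then set apart with their values known. Among the 15 pairs without Hmgcs1 and Mvd the median was 0.68 and the lowest 0.27, and a higher median is built into that choice. Pairs with Mvd had a median of 0.17 and pairs with Hmgcs1 of 0.22. With the group means taken out, the median of all 28 pairs was 0.23 and the lowest -0.32, and the 15 pairs had a median of 0.41 and a lowest of -0.26. The highest values over all pairs were then those of Idi1 with Sqle (0.70), Mvk with Fdps (0.68), Idi1 with Fdps (0.67) and Hmgcs1 with Idi1 (0.64). Lss, which followed Fdft1 over all arrays (0.68), had an r of 0.08 with it once the group means were removed.

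**Figure D4:**
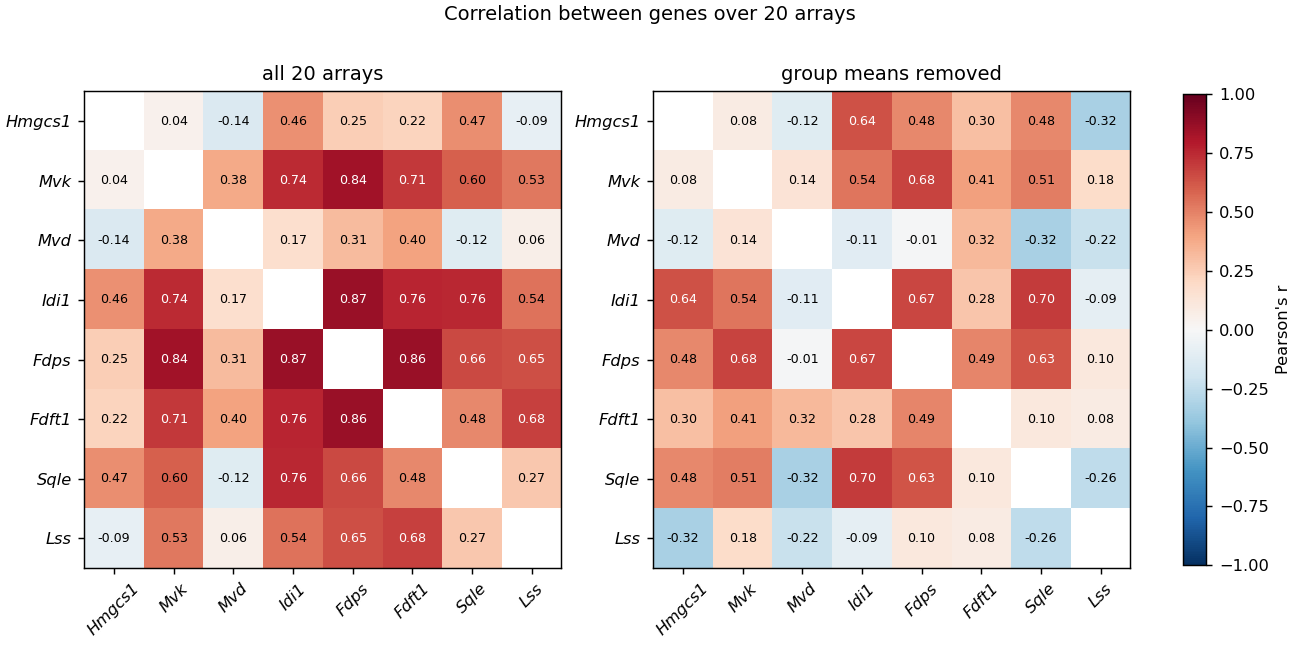
Pearson's r between each pair of the 8 measured genes over 20 arrays, in pathway order on both axes, for the levels (left) and with each group's mean removed (right), on a colour scale from -1 to 1. Idi1 and Fdps correlate at 0.87 on the left and 0.67 on the right, and the pairs with Mvd lie between -0.32 and 0.40 over both panels.

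Of the genes outside the arm, those whose levels followed the average deviation of the 8 genes most closely over the 20 arrays included other sterol genes. That average had a mean of 0.37 in Old CR, -0.10 in Old CR-ND, -0.10 in Old ND and -0.17 in Young ND. An r over all 20 arrays therefore favours genes that are high in Old CR. The 10 highest were Stard4, a carrier of cholesterol between membranes (r = 0.91), Insig1, which holds SREBP in the endoplasmic reticulum (0.88), the interferon-induced membrane protein Ifitm1 (0.88), the vesicle tethering subunit Vps11 (0.87), Ggact (0.86), Babam2 (0.86), Alkbh7 (0.86), the DNA end-binding subunit Xrcc5 (0.85), the sterol dehydrogenase Nsdhl (0.85) and the tethering subunit Vps51 (0.85). With the group means removed, Stard4, Insig1 and Nsdhl were not among the 10 highest. Srebf2, the gene of SREBP2 itself, had r = 0.80 over the 20 arrays. Its level averaged 7.51 ± 0.35 in Old CR and 7.03 ± 0.34 in Old ND (SD, n = 5 each), a difference of 0.48 ± 0.18 that did not pass (adjusted p = 0.199).

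The steps around the arm were counted in Old CR against Old ND from lists written with earlier results of these data known. Of all genes tested, 1.57% rose and 0.819% fell in Old CR against Old ND, the background for the counts of the neighbouring lists. Of 8 measured genes of the sterol arm after lanosterol 3 rose and 0 fell, with a median of 0.34. Nsdhl rose by 0.91 ± 0.12 (adjusted p = 0.000618), Dhcr7, the reductase of the last step, by 0.58 ± 0.13 (adjusted p = 0.0213) and the desaturase Sc5d by 0.88 ± 0.21 (adjusted p = 0.0302). Msmo1 (-0.03) and Tm7sf2 (0.12) did not pass. Of 10 genes of sterol sensing and uptake 2 rose and 0 fell, namely Stard4 (0.98 ± 0.17, adjusted p = 0.00466) and Insig1 (0.65 ± 0.15, adjusted p = 0.0262).

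Of 11 genes on the branches from isoprenyl diphosphates to prenylated proteins, dolichol and ubiquinone 0 passed, and their changes lay between -0.14 and 0.26 with a median of 0.09. None of the prenyl transferase subunits Fnta (-0.04), Fntb (0.06), Pggt1b (-0.14), Rabggta (0.26) and Rabggtb (0.26) passed, the last pair having the largest changes of this list. Of 9 fatty acid genes under SREBP1 2 rose and 0 fell, the acetyl-CoA synthetase Acss2 (0.65 ± 0.13, adjusted p = 0.0119) and the desaturase Fads1 (0.97 ± 0.23, adjusted p = 0.0270), while Fasn changed by 0.35 (adjusted p = 0.0956). Of 6 genes of cholesterol efflux and storage 1 rose and 0 fell, the riser being Nceh1, which releases cholesterol from its esters (0.78 ± 0.17, adjusted p = 0.0199).

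In Old CR-ND against Old CR the sterol arm had 1 gene lower, Nsdhl (-0.72 ± 0.12, adjusted p = 0.00959), and sterol sensing had 2, Stard4 (-0.99 ± 0.17, adjusted p = 0.00962) and Insig1 (-0.77 ± 0.15, adjusted p = 0.0303). The other 3 lists had 0 genes that passed in this comparison, in which 0.123% of all genes were higher and 0.211% lower in Old CR-ND. Insig1 averaged 9.62 ± 0.27 in Old CR-ND and 10.38 ± 0.12 in Old CR (SD, n = 5 each), and Stard4 averaged 4.96 ± 0.37 in Old CR-ND and 5.96 ± 0.28 in Old CR.

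**Figure D5:**
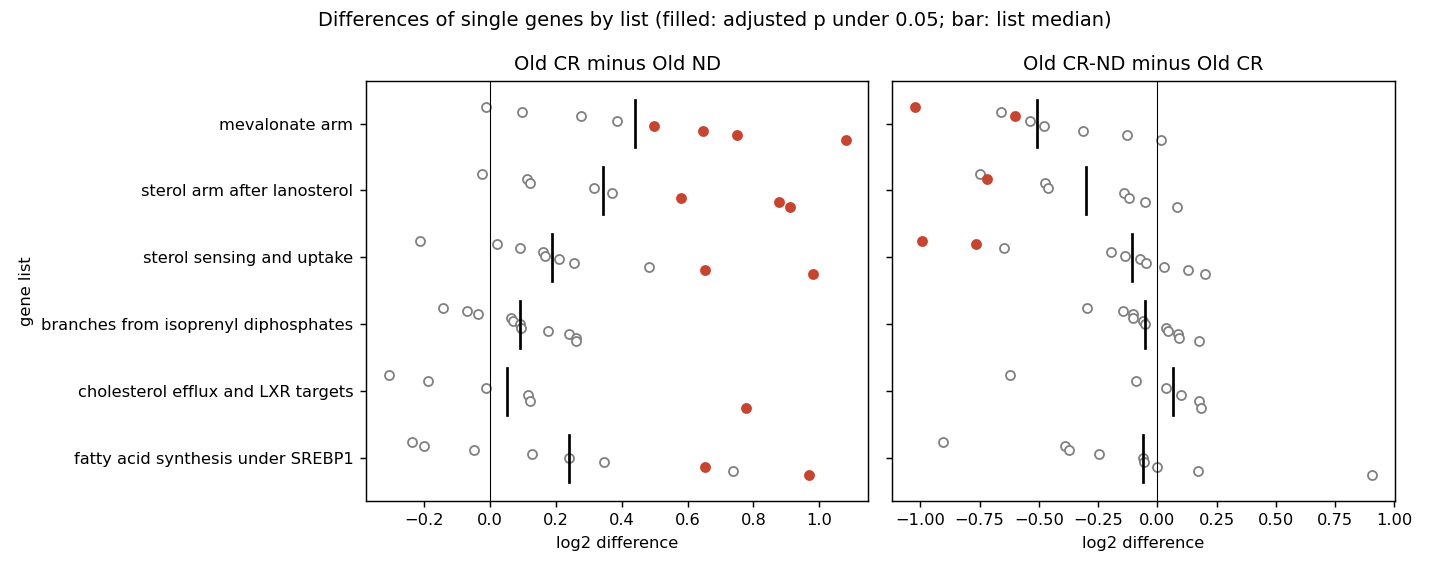
Log2 difference (horizontal axis) of every measured gene in the mevalonate arm and 5 neighbouring lists (vertical axis), for Old CR minus Old ND and Old CR-ND minus Old CR, filled where the adjusted p was under 0.05, with a bar at each list's median. The mevalonate arm has medians of 0.44 and -0.51, and the branches from isoprenyl diphosphates have medians of 0.09 and -0.05.

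Markers of cell types other than fibroblasts, and of proliferation, were set beside these results. The 42 measured markers came from 11 lists, among them keratinocyte, sebaceous gland, fat cell, macrophage and vessel genes. They include 3 proliferation genes, which do not mark a cell type. Of these 42, 0 passed in Old CR against Old ND (lowest adjusted p 0.0740, for Cd24a) and 0 in Old CR-ND against Old CR (lowest adjusted p 0.0947, for Krt79). Over all genes 2.39% passed in the first comparison and 0.333% in the second, so 0 of 42 lies near the share of all genes. Cd24a averaged 4.83 in Old CR and 5.56 in Old ND, a difference of -0.73. Against Young ND, Cd24a (-1.90) and Csf1r (-0.97) were lower and Cd68 (1.03), Plin4 (0.60) and Tek (1.63) higher in Old CR, Cd24a (-1.17), Csf1r (-1.20) and Des (-0.35) lower and Tek (1.02) higher in Old ND, and Cd24a (-1.30) and Csf1r (-0.92) lower and Tek (1.43) higher in Old CR-ND, all with limma's adjusted p under 0.05. The part of these markers in the differences from Young ND was not tested. The mean log2 level of the 7 keratinocyte markers ran from 6.84 to 7.51 in Old CR and from 6.18 to 8.54 in Old ND. Over the 20 arrays it correlated with the average of the 8 genes at r = -0.07, and with single genes at r from -0.55 for Mvd to 0.21 for Sqle. With group means removed, r was -0.55 for Mvd, -0.49 for Fdft1 and 0.27 for Sqle, the highest. The part of the keratinocyte markers in the differences of these genes was not tested. The 4 measured sebaceous gland markers had a mean between 4.01 and 4.08 in Old CR and between 4.08 and 4.26 in Old ND, and 3 of the 4 lay under the lower quartile of gene levels. In Old CR-ND their mean ran from 4.15 to 4.65, above all 5 Old CR arrays, with all 4 markers higher and none passing (Krt79 0.85, adjusted p = 0.0947), and their part in the differences between Old CR-ND and Old CR was not tested. The 3 measured fat cell markers ran from 4.93 to 5.17 in Old CR and from 4.82 to 5.01 in Old ND, and Adipoq averaged 3.42 in both. Plin4, which coats fat droplets, averaged 7.18 in Old CR and 6.83 in Old ND (difference 0.35, adjusted p = 0.181). Plin4 correlated with the average of the 8 genes at r = 0.67 over the 20 arrays, which share the 4 groups, and at 0.24 with group means removed, and its part in these results was not tested.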

How the data were processed

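RNA of sorted dermal fibroblasts was measured on 20 Affymetrix arrays, 1 per mouse. The authors deposited 1 log2 value per probe set and array. The submitters' processing notes name RMA and affy, and versions are not given in the sources used here. The values lie between 2.71 and 13.46, with array medians between 5.27 and 5.34. Precision depends on the number of arrays and on the spread of each gene. The standard error of a difference had a median of 0.10 over all genes, and among the members it ran from 0.07 for Mvd to 0.26 for Sqle. GEO's platform annotation gives a single symbol to 28898 of the 45141 probe sets, more than 1 symbol to 551 and no symbol to 15692. Symbols were updated through Entrez numbers against RefSeq (GRCm38.p6), which matched 28689 probe sets, and the brightest probe set of each of 17097 genes was kept.

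Groups came from the labels. Group means without covariates were fitted to all 20 arrays together (limma 3.58.1, lmFit and eBayes, under R 4.3.3), and each comparison was tested two-sided with Benjamini-Hochberg adjustment over all genes. Intervals are 95% intervals of that fit. The fit was tested on simulated data with known changes. The members, lists, motifs and rules for named genes were chosen with earlier results of these data known. The members were always named, from each other list up to 4 genes that passed with the smallest adjusted p and a few preset ones, and by likeness the 10 genes with the highest r, clone and predicted symbols left out. Genes given as not passing were chosen after their values were seen. The alternatives were the run of the label numbers as a block or alone, the probe set rule, dim genes left out, quantile normalization once more, median centring, robust eBayes with a trend, weights per array, a fit of just the 2 groups, thresholds of 0.01 and 0.1, and each array left out in turn.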

Additional observations from a re-analysis of the deposited data

Results flagged for a closer look

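In 3 of the 44 sets of 5 arrays examined (11 probe sets in 4 groups), 1 array stood apart from the rest of its group by Dixon's criterion, and chance alone marks about 1 set in 20. All 3 were of Hmgcs1, on its 1 dim probe set. Old CR-ND replicate 5 had a log2 level of 3.89, where the other arrays of that group lay between 4.36 and 4.48. Old CR replicate 4 had 4.51, where the others lay between 4.20 and 4.26. Young ND replicate 3 had 4.05, where the others lay between 4.24 and 4.28.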

How the results depend on the processing

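In Old CR against Old ND, where 4 genes passed, the alternatives gave 2 with only the 2 groups compared, 2 at a threshold of 0.01, between 2 and 4 with each array left out, and 0 in run 2 alone. Old CR has 1 array there, assumed to vary like the others. The median change became 0.70 with genes whose mean over the 20 arrays was under the median level left out. That keeps the 4 called genes only, and Idi1, Fdps and Fdft1 lie under that level without the Old CR arrays, so this larger median follows from the filter and says nothing of stability. In Old CR-ND against Old CR, where 2 genes passed, run 1 alone gave 1, run 2 alone 0, array weights 5, a threshold of 0.01 1, and leaving out each array between 1 and 3. In Old CR against Young ND, run 2 alone gave 1 gene and a median of 0.35, and leaving out genes under the median level gave, for the same reason, a median of 0.81. Fdps passed in Old CR against Old ND under every alternative but run 2 alone.

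Some changes that had not passed turned sign. In run 2 alone they were Hmgcs1 in Old ND against Young ND (-0.015), in Old CR-ND against Old CR (-0.075), in Old CR against Young ND (-0.07) and in Old CR-ND against Young ND (-0.145), Sqle in Old ND against Young ND (-0.145), Lss in Old CR against Old ND (-0.03), and Mvk (0.10), Fdft1 (-0.035) and Sqle (0.21) in Old CR-ND against Old ND. In run 1 alone they were Fdps in Old ND against Young ND (0.05) and Mvd in Old CR against Young ND (-0.0242). Array weights turned Fdps in Old ND against Young ND (0.0262) and Mvd in Old CR-ND against Old ND (0.0141), the mean of probe sets turned the same Mvd change (0.01), and quantile normalization once more turned Hmgcs1 in Old CR against Old ND (0.0131). With each array left out, the ranges that crossed 0 were, in Old ND against Young ND, -0.1405 to 0.0145 for Fdps, -0.083 to 0.227 for Idi1 and -0.1065 to 0.0005 for Mvd, in Old CR against Old ND -0.0755 to 0.0345 for Hmgcs1, and in Old CR-ND against Old CR -0.0295 to 0.118 for Hmgcs1. In Old CR-ND against Old ND they were -0.0275 to 0.1405 for Fdps, -0.013 to 0.1145 for Fdft1, -0.0935 to 0.064 for Mvk, -0.3085 to 0.119 for Sqle, -0.1075 to 0.0175 for Lss, -0.067 to 0.0305 for Mvd, -0.043 to 0.267 for Idi1 and -0.0615 to 0.104 for Hmgcs1. In Old CR-ND against Young ND the range was -0.0855 to 0.0705 for Fdps. The causes were not tested. No paired analysis was possible because the labels give no replicate number that groups share and do not say which samples were taken on the same day.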

Other observations

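With the mean of each group taken out, likeness to the average of the 8 genes was computed again over the 20 arrays. The 10 highest were Atp5a1, a subunit of the mitochondrial ATP synthase (r = 0.87), Tmem39a (0.87), Gdpd3 (0.86), Rabif (0.84), Mars1, a methionyl-tRNA synthetase (0.84), Ucn3 (0.84), Myl9, a myosin light chain (0.84), Cks1b (0.83), Smim1 (0.83) and Rfxank (0.83). Of the genes of the neighbouring lists, Fads1 had r = 0.80, Acly r = 0.79, Srebf2 r = 0.75, Cyp51, the demethylase that acts on lanosterol, r = 0.74, Insig1 and Stard4 r = 0.67 each and Nsdhl r = 0.51 on the same measure. By rank on this measure, with clone and predicted symbols left out, Insig1 stood at 485, Stard4 at 494 and Nsdhl at 2027. Of the other list genes that rose in Old CR against Old ND, Sc5d had r = 0.67, Nceh1 0.04, Dhcr7 0.01 and Acss2 -0.26. The 10 genes named first are the highest of many over arrays that share groups and normalization. All these values are given as a description.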
